A study of Mus musculus with 12 samples.

Results

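The STAT genes described here are *Stat2*, *Stat3*, *Stat4*, *Stat5a*, *Stat5b* and *Stat6*, which encode signal transducers and activators of transcription. They were chosen by symbol, and all 6 were found among the 45563 gene symbols used from the RNAseq tables. Oligodendrocyte precursor cells (OPCs) from the cortices of mouse pups were isolated with beads against PDGFRα and cultured for 3 days in medium with the growth factors PDGF-AA and FGF2. Cells came from WT pups (strain C57BL/6 per the labels, C57BL/6J per the study's methods) or from pups with a germline deletion of the TNF receptor TNFR2 (TNFR2-/-), aged P2 to P5 per the labels. They were left non-stimulated (NS), with PBS vehicle per the study's methods, or stimulated (St) for 3 h with TNF, IFNγ and IL1β at 25 ng/mL each. Each genotype was measured as NS and as St, which made 4 groups of 3 libraries. WT libraries carried the replicate numbers 2, 3 and 4, and TNFR2-/- libraries the numbers 2, 4 and 5. Germline deletion affects every cell of the pup, and a culture enriched with beads can hold other cell types.

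STAT proteins wait in the cytoplasm and are phosphorylated by Janus kinases bound to cytokine receptors. They then pair, enter the nucleus and bind short palindromic GAS elements near target genes. STAT2 is the exception: it acts mostly with IRF9 in the complex ISGF3, which binds interferon-stimulated response elements (ISREs). STAT3 serves IL6, LIF, CNTF and oncostatin M receptors that share the subunit gp130, STAT4 serves IL12, STAT5A and STAT5B serve growth hormone, prolactin and many hematopoietic cytokines, and STAT6 serves IL4 and IL13. CNTF and LIF, which signal through STAT3, are known to act on cells of the oligodendrocyte lineage. SOCS proteins, whose genes are themselves STAT targets, shut the pathway off.

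Library totals lay between 26886878 and 30335265 reads, recovered from the deposited FPKM (fragments per kilobase, scaled to the library size). The 8 OPC markers, among them *Pdgfra* and *Olig2*, summed to 7975 to 9275 CPM (recovered reads per 1000000 reads of the library) in NS and 6546 to 7812 in St. None of the 8 was at 0 in any library. Astrocyte markers summed to 924 to 1137 CPM in WT libraries, to 1408 to 1514 in TNFR2-/- replicates 2 and 4, and to 2682 in NS and 2653 in St of TNFR2-/- replicate 5. Microglia markers summed to 5.77 to 12.6 and lymphocyte markers to 0.198 to 2.94 CPM. The gene of TNFR2, *Tnfrsf1b*, counted 12 to 24 reads without cytokines in WT, against 213 to 346 in TNFR2-/-, and 61 to 145 with cytokines in WT, against 282 to 356 in TNFR2-/-. Its level thus was higher in the libraries labelled TNFR2-/-. Which part of the gene these reads cover cannot be seen in values per gene, so they do not check the labels, and TNFR2-/- below names the labelled genotype. The study's captions describe values taken from the RNAseq as means of independent experiments, but which libraries came from separate litters is not given in the sources used here. The p-values measure the spread between these libraries, which may be technical.

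The STAT genes were present at very different levels in OPCs. The divisors behind the deposited FPKM were 467 to 1361 bases for these genes, whose annotated exons cover 3872 to 9527 bases, so levels were compared between genes only as recovered reads per kilobase of annotated exon and per 1000000 reads of the library (RPKM). On this scale *Stat3*, the mediator of gp130 cytokines, was highest in WT NS at 28.4 ± 1.59 (SD, n = 3). *Stat5b*, one of the neighboring *Stat5* pair, followed at 7.40 ± 0.244 and *Stat2* at 2.90 ± 0.246. *Stat6* lay at 0.394 ± 0.0540 and *Stat5a* at 0.212 ± 0.0312. *Stat4* lay at 0.00574 ± 0.00995, with 0 to 2 reads per library. The ranges of neighbors in this order did not overlap in WT NS. In TNFR2-/- NS the order was the same, but the range of *Stat6*, 0.219 to 0.547, overlapped that of *Stat5a*, 0.218 to 0.587. With the longest annotated coding sequence as divisor instead, a choice made after seeing the data, *Stat6* and *Stat5a* overlapped in both NS groups and the ranges of other neighbors stayed apart.

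The order within the family differed after cytokines. In WT St, *Stat3* was at 94.1 ± 6.31 RPKM and *Stat2*, at 36.5 ± 2.44, was now above *Stat5b*, at 8.43 ± 0.368. *Stat5a*, at 0.836 ± 0.0691, stood above *Stat6*, at 0.390 ± 0.0194. In TNFR2-/- St the order was again *Stat3* at 84.4 ± 4.82, *Stat2* at 34.7 ± 5.05, *Stat5b* at 9.62 ± 0.150, *Stat5a* at 2.51 ± 1.40 and *Stat6* at 0.230 ± 0.0449. No neighbors overlapped in either St group with either divisor. The summed level of the 6 genes was 39.3 ± 1.66 in WT NS, 40.0 ± 1.46 in TNFR2-/- NS, 140.3 ± 8.46 in WT St and 131.5 ± 6.77 in TNFR2-/- St. *Stat2* made up 7.38% of that sum in WT NS and 26.0% in WT St, while the part of *Stat5b* was 18.8% in WT NS and 6.01% in WT St. *Stat3* made up most of it in both, at 72.2% and 67.1%.

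**Figure D1:**
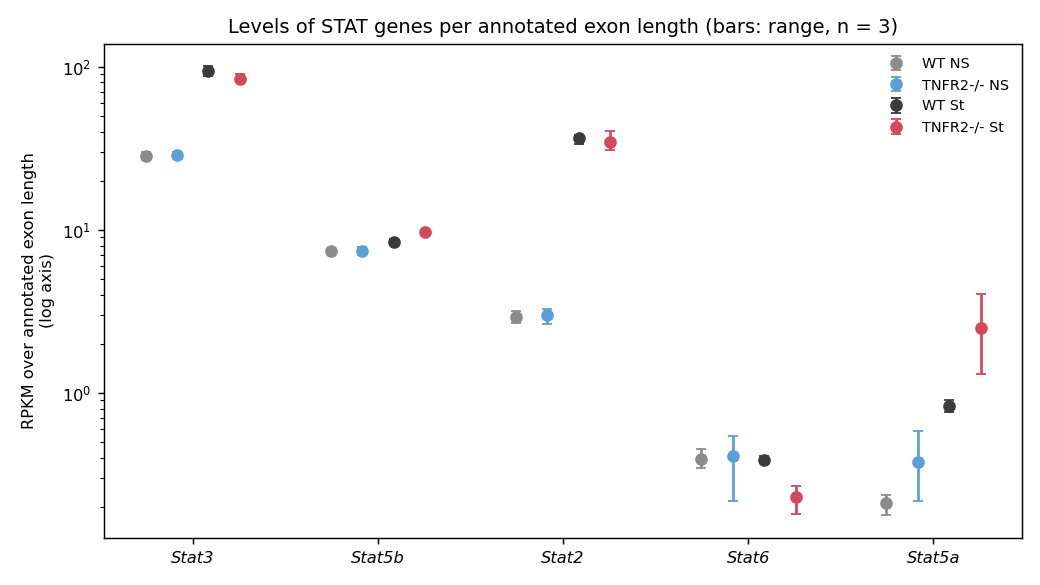
Level of each STAT gene per annotated exon length in RPKM, on a log axis, for the 4 groups (points: mean, bars: range of 3 libraries). *Stat2* moves from 2.90 to 36.5 in WT and passes *Stat5b*, and *Stat5a* moves from below *Stat6* to above it. *Stat4*, with 0 to 4 reads per library, is not drawn.

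The promoters of *Stat2*, *Stat3* and *Stat5a* are shown because these were the STAT genes called higher after cytokines. The sequences are RefSeq's for GRCm38.p6, 250 bases before to 50 after an annotated start, printed 5′ to 3′ on the gene's strand. Capitals mark matches to a GAS motif (TTCNNNGAA), an ISRE core (GAAANNGAA) or the NF-kappaB consensus, each searched on both strands.
*Stat2*, chr10:128270248-128270547, plus strand: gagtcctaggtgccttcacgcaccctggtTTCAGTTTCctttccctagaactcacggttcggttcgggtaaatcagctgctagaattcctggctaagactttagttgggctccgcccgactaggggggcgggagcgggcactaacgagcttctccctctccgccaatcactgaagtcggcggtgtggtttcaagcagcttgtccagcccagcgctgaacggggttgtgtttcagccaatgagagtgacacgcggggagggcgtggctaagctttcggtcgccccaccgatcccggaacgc
*Stat3*, chr11:100939491-100939790, minus strand: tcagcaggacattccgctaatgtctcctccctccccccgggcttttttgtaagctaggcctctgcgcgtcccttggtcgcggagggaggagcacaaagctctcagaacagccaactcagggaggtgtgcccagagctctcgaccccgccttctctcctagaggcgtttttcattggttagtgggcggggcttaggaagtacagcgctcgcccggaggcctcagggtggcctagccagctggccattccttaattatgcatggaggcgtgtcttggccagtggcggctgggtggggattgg
*Stat5a*, chr11:100860234-100860533, plus strand: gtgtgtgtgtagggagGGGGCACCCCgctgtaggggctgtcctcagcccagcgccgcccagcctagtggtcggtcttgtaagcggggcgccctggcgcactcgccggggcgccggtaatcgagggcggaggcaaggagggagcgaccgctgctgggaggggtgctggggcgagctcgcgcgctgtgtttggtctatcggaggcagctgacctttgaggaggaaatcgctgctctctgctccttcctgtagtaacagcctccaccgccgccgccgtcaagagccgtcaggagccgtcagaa

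*Stat2* held an ISRE core on the opposite strand, which is TTCAGTTTC on the printed strand, beginning at position -221 from the start. *Stat5a* held a match to the NF-kappaB consensus at position -234 of this start, and none in the window of its other annotated start. *Stat3* held none of the 3 motifs in this window. RefSeq gave 9 windows for the 6 genes, and the only other match was an ISRE core, GAAAGTGAA, at position -97 of 1 of the 2 starts of *Stat4*, the gene with almost no reads. No window held a GAS motif. Of 32851 RefSeq promoters of the same length, 8.30% held a GAS motif, 8.56% an ISRE core and 8.46% the NF-kappaB consensus. A match is a description of letters and not a site shown to be bound.

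After 3 h of cytokines, 3 STAT genes were called higher in WT OPCs: *Stat2*, *Stat3* and *Stat5a*. A call required an adjusted p no higher than 0.05 (limma, Benjamini-Hochberg adjustment over 18081 genes tested), a change of 1.5-fold or more in either direction and an average of 1 FPKM or more. The same 3 were called higher in TNFR2-/- OPCs, and none was called lower in either. Over all genes tested, 7.53% were called in WT, 4.58% higher and 2.95% lower, and 10.1% in TNFR2-/-, 5.41% higher and 4.68% lower. The median log2 fold change of the 5 STAT genes tested was 1.64 in WT, beside -0.05 over all genes, and 1.55 in TNFR2-/-, beside -0.11. *Stat4* fell under the filter of 0.1 FPKM and was not tested. All fold changes are on the scale of log2(FPKM + 0.5), and in a bulk library fewer cells of a type and less RNA per cell cannot be told apart.

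The largest change among the STAT genes was that of *Stat2* (ENSMUSG00000040033, chromosome 10, 128270559 to 128292849, plus strand, GRCm38), the interferon-specific member of the family. Its FPKM were 33.0, 29.6 and 27.9 in WT NS and 350.1, 391 and 396 in WT St. Those of TNFR2-/- were 27.5, 31.6 and 34.0 in NS and 322 and 340 in St for replicates 2 and 4, with 420.2 for replicate 5. Every St library was far above every NS library, while the genotypes overlapped in both conditions. The log2 fold change was 3.63 ± 0.11 (SE; adjusted p = 7.43e-09, limma), or 12.4-fold, in WT. In TNFR2-/- it was 3.51 ± 0.11 (adjusted p = 1.16e-08, limma), or 11.4-fold. The genotypes differed by 0.04 ± 0.11 in NS (adjusted p = 0.859, limma) and by -0.08 ± 0.11 in St (adjusted p = 0.685, limma).

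*Stat3* (ENSMUSG00000004040, chromosome 11, 100885098 to 100939540, minus strand) rose from an already high level. It had 278, 294 and 262 FPKM in WT NS and 858, 982 and 924 in WT St. In TNFR2-/- the values were 268, 294 and 283 in NS and 791, 880.2 and 809 in St. NS and St did not overlap in either genotype. The log2 fold change was 1.73 ± 0.07 in WT (SE; adjusted p = 4.60e-08, limma; 3.31-fold) and 1.55 ± 0.07 in TNFR2-/- (adjusted p = 8.21e-08, limma; 2.93-fold). Stimulated TNFR2-/- OPCs differed from stimulated WT OPCs by -0.16 ± 0.07, which did not pass the test (adjusted p = 0.178, limma), and the highest TNFR2-/- library lay within the WT range.

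*Stat5a* (ENSMUSG00000004043, chromosome 11, 100859351 to 100885169, plus strand) was low in resting cells and rose in both genotypes. It had 51, 34 and 47 reads in WT NS and 194, 164 and 180 in WT St, or 1.40, 1.04 and 1.29 FPKM against 5.31, 4.50 and 4.92. In TNFR2-/- it had 69, 47 and 127 reads in NS and 465, 283 and 830 in St, or 1.89, 1.28 and 3.45 FPKM against 12.7, 7.70 and 23.8. Every St library was above every NS library of its genotype, and replicate 5 was the highest TNFR2-/- library in NS and in St. The log2 fold change was 1.64 ± 0.36 in WT (SE; adjusted p = 0.0109, limma; 3.11-fold). It was 2.43 ± 0.36 in TNFR2-/- (adjusted p = 0.000718, limma; 5.40-fold). Because WT NS lies near the pseudocount of 0.5 FPKM, these folds are smaller than the ratios of the FPKM themselves, which were 3.80, 4.32 and 3.81 in the WT pairs of the same number and 6.76, 6.03 and 6.91 in the TNFR2-/- pairs.

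**Figure D2:**
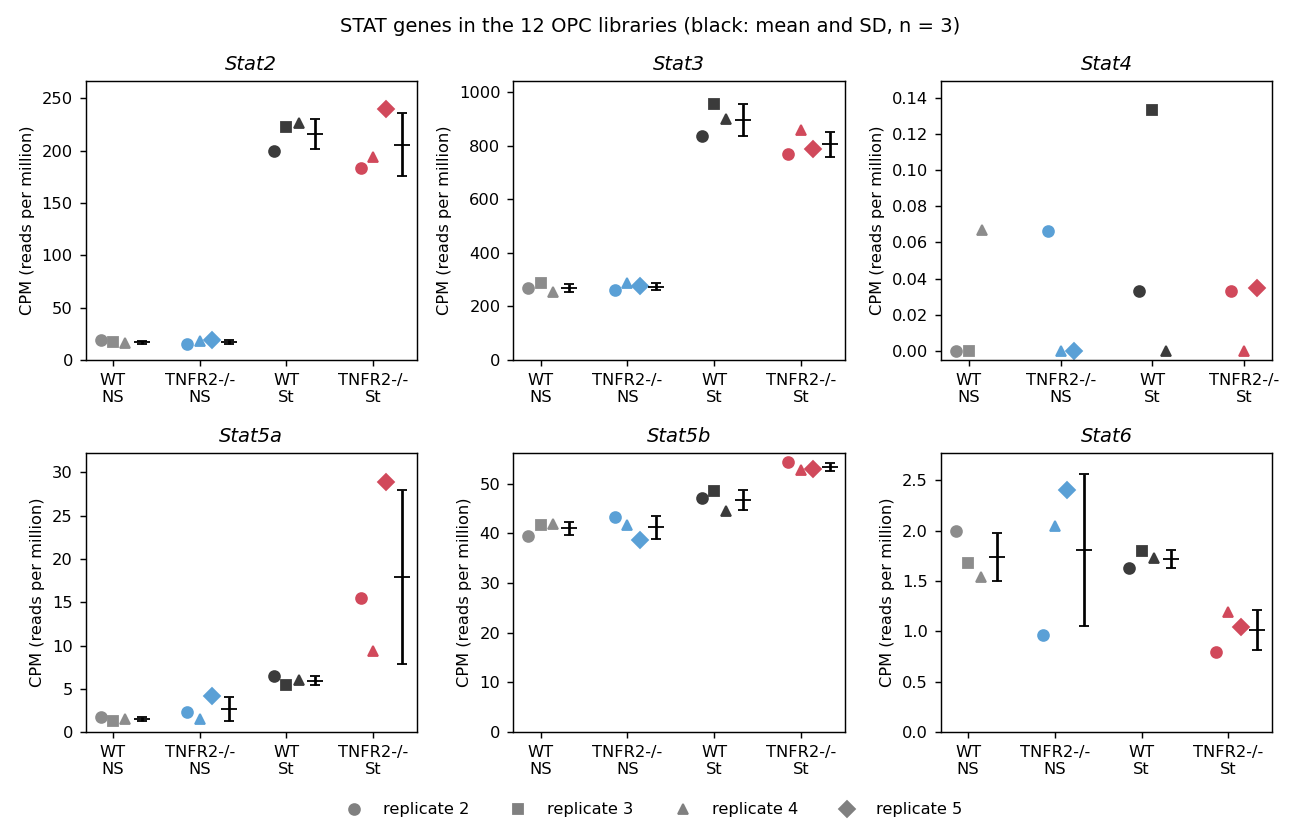
CPM of each STAT gene in the 12 OPC libraries, by group, with the shape of a point giving the replicate number and black bars the mean and SD (n = 3; no bar is drawn for *Stat4*). St libraries of *Stat2*, *Stat3* and *Stat5a* lie above all NS libraries of their genotype, replicate 5 is the highest TNFR2-/- library of *Stat5a*, and *Stat4* does not exceed 4 reads in any library.

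The 3′ ends of *Stat5a* and *Stat3* overlap by 72 bases of exon on opposite strands. Whether the counting used strand is not given in the sources used here, and without strand, reads in these bases cannot be told apart. *Stat3* had 7653 to 28686 reads per library against 34 to 830 of *Stat5a*. The part of these bases in the values of *Stat5a* was not tested. *Stat5a* and *Stat5b* transcripts share 265 stretches of 100 bases, 3.44% of those of *Stat5a* and 4.79% of those of *Stat5b*, and such reads could be counted for either gene.

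*Stat5b* (ENSMUSG00000020919, chromosome 11, 100780731 to 100850724, minus strand) moved little beside its neighbor. It lies 8626 bases from *Stat5a*, start to start on opposite strands. Its FPKM were 41.7, 44.2 and 44.2 in WT NS and 49.9, 51.3 and 47.1 in WT St. In TNFR2-/- they were 45.8, 44.1 and 40.9 in NS and 57.4, 55.8 and 56.0 in St. NS and St did not overlap in either genotype, and TNFR2-/- St lay above WT St throughout. The rise in TNFR2-/- passed the adjusted p but was below the fold required for a call (0.37 ± 0.06, adjusted p = 0.00109, limma; 1.29-fold). In WT the difference was 0.19 ± 0.06 (adjusted p = 0.0561, limma). With NS and St libraries of the same number as a replicate block within genotype, the WT value passed as well, at an adjusted p of 0.00618 (limma).

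*Stat6* (ENSMUSG00000002147, chromosome 10, 127642986 to 127660957, plus strand), the IL4 and IL13 member, was not called in either genotype. It had 60, 45 and 46 reads in WT NS and 49, 54 and 52 in WT St, which overlap. In TNFR2-/- it had 29, 62 and 73 reads in NS and 24, 36 and 30 in St. The TNFR2-/- groups overlapped through NS replicate 2, the lowest NS library. The log2 fold change was -0.01 ± 0.25 in WT (adjusted p = 0.996, limma) and -0.65 ± 0.25 in TNFR2-/- (adjusted p = 0.0871, limma). The TNFR2-/- value was called with the replicate block within genotype (adjusted p = 0.00982, limma), which brings the STAT genes called there to 4. Without TNFR2-/- NS replicate 2 it was -0.99 (adjusted p = 0.00192, limma). These were the only 2 of 24 alternatives with a call. Over all settings the value ranged from -0.99 to -0.42, with an adjusted p of up to 0.308 (limma). *Stat6* and *Nab2*, a corepressor gene on the opposite strand, overlap by 40 bases of exon. *Nab2* had 1563 to 2657 reads in TNFR2-/- NS and 1251 to 1839 in TNFR2-/- St, beside 2200 to 2580 in WT NS and 1830 to 1981 in WT St, and its part in the values of *Stat6* was not tested.

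*Stat4* (ENSMUSG00000062939, chromosome 1, 51987148 to 52107189, plus strand), the IL12 member used by T and NK cells, was near absent. It had 0, 0 and 2 reads in WT NS, 2, 0 and 0 in TNFR2-/- NS, 1, 4 and 0 in WT St and 1, 0 and 1 in TNFR2-/- St. A count of 0 allows up to 3 reads in a library, so differences among counts of 0 to 4 reads could not be resolved at this depth. Of its stretches of 100 bases, 18.0% are shared with the overlapping gene *Gm28177*.

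**Figure D3:**
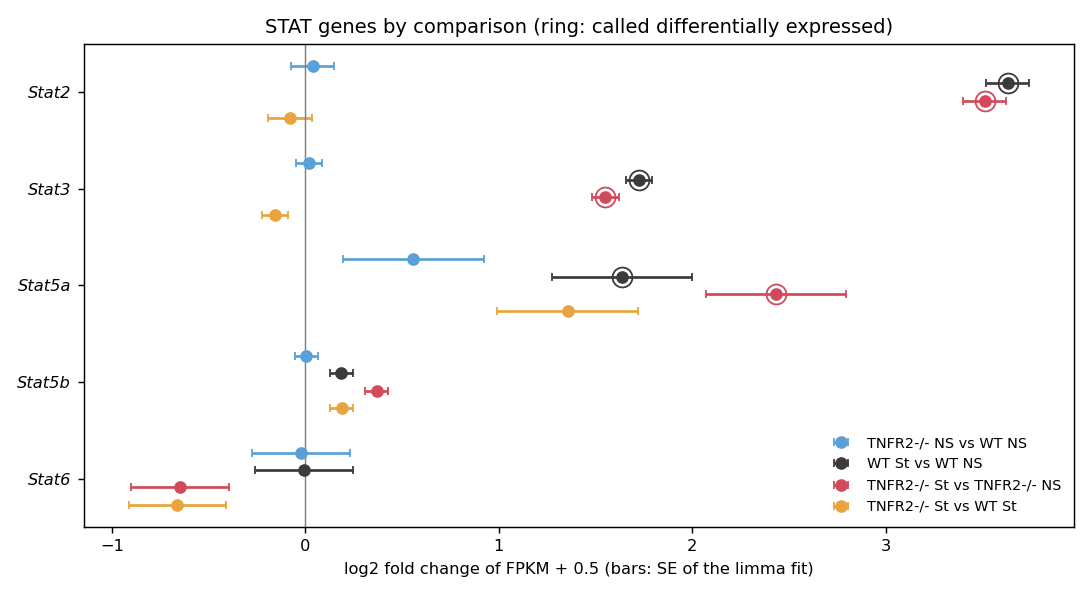
Log2 fold change of FPKM + 0.5 (points) with its SE (bars) for the 5 STAT genes tested in the 4 comparisons between groups, with a ring around those called. Rings stand only on *Stat2*, *Stat3* and *Stat5a* in the comparisons of St with NS, with *Stat2* the farthest right at 3.63 in WT and 3.51 in TNFR2-/-.

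The question of genotype was whether loss of TNFR2 altered STAT transcripts in resting or stimulated OPCs. None of the 5 STAT genes tested was called between genotypes in NS, as reported or under any alternative run, where 2.90% of all genes tested were called. None was called in St, where 1.80% were called, 1.18% higher and 0.614% lower in TNFR2-/-. At an unadjusted p of at most 0.05 in the limma test, 0 of the 5 passed in NS, where 30.2% of all genes tested did. In St 4 passed, *Stat3*, *Stat5a*, *Stat5b* and *Stat6*, beside 26.7% of all genes tested. In NS the differences of *Stat2*, *Stat3*, *Stat5b* and *Stat6* lay between -0.02 and 0.04, and their signs changed with the scaling or with the libraries left out. *Stat5a* differed by 0.56 ± 0.36 in NS (adjusted p = 0.334, limma).

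In St the largest genotype difference was that of *Stat5a*, 1.36 ± 0.36 (SE; adjusted p = 0.0549, limma) or 2.56-fold, just short of a call. Its 3 TNFR2-/- St libraries, at 7.70 to 23.8 FPKM, all lay above the 3 WT St libraries, at 4.50 to 5.31. It was called with the replicate block within genotype (adjusted p = 0.0312, limma). It was also called with the voom method of limma on the recovered reads (1.43, adjusted p = 0.0434) and with only genes of at least 1 FPKM tested (adjusted p = 0.0453). Leaving out 1 library brought a call without TNFR2-/- St replicate 4 (1.73, adjusted p = 0.0287, limma), and, through the estimate of the spread, without TNFR2-/- NS replicate 4 (adjusted p = 0.0463, limma) or NS replicate 5 (adjusted p = 0.0401, limma), and it was 0.95 (adjusted p = 0.151, limma) without TNFR2-/- St replicate 5. Without both libraries of TNFR2-/- replicate 5, left out after seeing the data, it was 0.95 (adjusted p = 0.0644, limma). TNFR2-/- replicate 5 also had the highest sum of the 8 astrocyte markers, with *Gfap* at 346 CPM in NS and 349 in St against 9.34 to 63.7 in the other 10 libraries. Its sums of the 8 mature oligodendrocyte markers were the highest as well, at 1300 CPM in NS and 1099 in St against 533 to 1032 elsewhere. *Gpr17*, listed as an OPC marker, was at 1204 in NS and 649 in St against 90.7 to 420 elsewhere. The OPC markers *Sox10* and *Nkx2-2* were also highest in replicate 5, in NS and in St. *Pdgfra*, at 471 in NS and 279 in St, and *Cspg4*, at 340 and 229, were there the lowest of their condition. *Sox9*, at 157 and 148, and *Aldh1l1*, at 222 and 192, were not highest there, unlike the other astrocyte markers. The 8 astrocyte markers were all above 0 reads in every library, and their sums did not overlap between genotypes in NS or in St. Sums of the mature oligodendrocyte markers overlapped between genotypes in both. The part of these markers in the level of *Stat5a* was not tested.

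*Stat5b* was also higher in TNFR2-/- St than in WT St in every library, by 0.19 ± 0.06 (adjusted p = 0.0784, limma). *Stat6* was lower in every library (-0.66 ± 0.25, adjusted p = 0.132, limma), and without TNFR2-/- NS replicate 2, which changes the estimate of the spread, its adjusted p was 0.0418 (limma). That was the only 1 of 24 alternatives with a call for *Stat6* in St, and its adjusted p reached 0.280 (limma) in others. Groups that do not overlap were common: 32.7% of all genes tested had none between genotypes in St and 34.2% in NS, beside 37.7% between WT St and WT NS and 37.3% between the TNFR2-/- groups. Exact permutation tests of single genes could not go below 0.1 with 3 libraries against 3, and gave 0.1 for *Stat5a*, *Stat5b* and *Stat6* in St.

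The change with cytokines was compared between genotypes by an interaction term. This fit did not pair NS and St libraries of the same number, so its SE includes the spread between numbers. No STAT gene was called, and over all genes tested 0.00553% were. The interaction was 0.80 ± 0.51 for *Stat5a* (adjusted p = 0.758, limma), -0.64 ± 0.36 for *Stat6* (adjusted p = 0.711, limma) and -0.18 ± 0.10 for *Stat3* (adjusted p = 0.710, limma). It was 0.18 ± 0.08 for *Stat5b* (adjusted p = 0.625, limma) and -0.12 ± 0.16 for *Stat2* (adjusted p = 0.923, limma). At an unadjusted p of at most 0.05, 0 of the 5 passed, beside 7.95% of all genes tested. Under the alternatives, which included a replicate block, the adjusted p for *Stat5a* ranged from 0.124 to 0.922, and 0 of 23 gave a call.

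The change with cytokines was also taken within each replicate number. St minus NS of *Stat5a* was 1.61, 1.70 and 1.60 in WT and 2.47, 2.21 and 2.62 in TNFR2-/-, on the log2(FPKM + 0.5) scale, so the genotypes did not overlap. *Stat3* gave 1.63, 1.74 and 1.81 in WT and 1.56, 1.58 and 1.51 in TNFR2-/-, also with no overlap and in the other direction. *Stat5b* gave 0.26, 0.21 and 0.09 in WT and 0.32, 0.34 and 0.45 in TNFR2-/-. Changes of *Stat2* overlapped, at 3.39, 3.70 and 3.80 in WT and 3.52, 3.41 and 3.61 in TNFR2-/-, and so did those of *Stat6*, at -0.26, 0.09 and 0.15 in WT and -0.21, -0.68 and -1.05 in TNFR2-/-. An exact permutation test of 3 against 3 gave 0.1, the smallest it can, for *Stat3*, *Stat5a* and *Stat5b*. How many of all genes tested do not overlap in this way was not counted, and no STAT gene was called for the interaction.

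**Figure D4:**
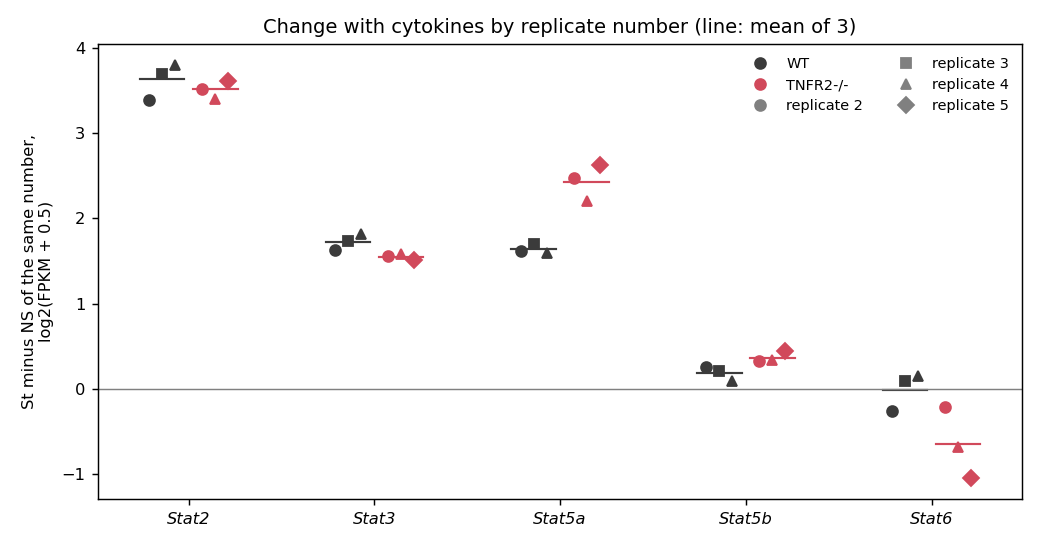
Change of each STAT gene with cytokines, as St minus NS of the same genotype and replicate number on the log2(FPKM + 0.5) scale, with the shape giving the number and the line the mean of 3. The WT and TNFR2-/- points of *Stat5a* stand apart, at 1.60 to 1.70 and 2.21 to 2.62, while those of *Stat2* and *Stat6* overlap.

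Across the 12 libraries, each STAT gene was described by the 3 genes most correlated with it among 13549 with a mean of at least 1 FPKM. These correlations are over libraries that share the contrast of NS and St, and they say nothing of control. *Stat2* was closest to *Tap2*, a peptide transporter of antigen presentation (Pearson's r = 0.999), *Psmb8*, an immunoproteasome subunit (r = 0.998), and the transcription factor *Irf8* (r = 0.997). *Stat5a* was closest to *Trim12c* (r = 0.982), *Trim30a* (r = 0.981) and the nuclear body gene *Pml* (r = 0.980). *Stat3* was closest to *Noc4l* (r = 0.996), *Lrrc18* (r = 0.995) and *Ccdc25* (r = 0.995), *Stat5b* to *B3gnt5* (r = 0.977), *Mtnr1a* (r = 0.972) and *Adamts5* (r = 0.963), and *Stat6* to *Idh1* (r = 0.942), *Ppapdc3* (r = 0.929) and *Arl15* (r = 0.901). Between STAT genes, *Stat2* and *Stat3* were the closest pair over the 12 libraries (r = 0.995). After group means were removed this was 0.338, so most of it is the contrast of NS and St.

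Other genes of the pathway were read from lists chosen from general knowledge, with earlier results of these data known. Tested were 4 of 4 interferon receptor, 15 of 21 other receptor and 4 of 4 Janus kinase genes. So were 6 of 6 partner, 18 of 18 inhibitor and 13 of 20 ligand genes. Over these and the target lists below, 40 of 90 genes outside the STAT family were called in WT (44.4%), 36 higher and 4 lower. In TNFR2-/- 41 of 90 were called (45.6%), 40 higher and 1 lower. Over all genes tested the shares were 7.53% in WT and 10.1% in TNFR2-/-. Among ligands, 4 were called higher in WT and 5 in TNFR2-/-, with medians of 1.06 and 1.12. *Lif*, a gp130 cytokine that signals through STAT3, went from 264 to 569 reads in WT NS to 6137 to 9687 in WT St (4.07 ± 0.31, adjusted p = 6.07e-06, limma). *Csf2*, encoding GM-CSF, a STAT5 cytokine, had 0 reads in each WT NS library and 18 to 27 in WT St, at least 6.72-fold higher when 3 reads per library are allowed in NS. *Il6* and *Tslp* were the other ligands called in WT, and *Il6*, which went from 0 to 1 reads without cytokines to 272 to 463 with them, was at least 127-fold higher by the same floor. *Il21* went from 0 to 3 reads in WT NS to 127 to 135 in WT St, at least 41.6-fold higher by this floor. It was below the average FPKM required for a call, at 0.717 in WT St.

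Receptors changed in part. Of interferon receptor genes, *Ifnar2* (1.40 ± 0.07, adjusted p = 2.12e-07, limma) and *Ifngr2* (1.18 ± 0.07, adjusted p = 9.65e-07, limma) rose in WT. *Ifnar1* and *Ifngr1* were not called, and the counts in TNFR2-/- were again 2 of 4, with medians of 0.63 in WT and 0.61 in TNFR2-/-. Of the other receptors, 5 were called higher in each genotype, with medians of 0.01 and 0.09. *Osmr*, the oncostatin M receptor that pairs with gp130, was the largest in WT (3.84 ± 0.40, adjusted p = 7.99e-05, limma). It was followed by *Il4ra*, the receptor chain upstream of STAT6 (2.51 ± 0.21, adjusted p = 1.56e-05, limma). *Il13ra1*, *Lifr* and *Il6st*, which encodes gp130, were the other 3.

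Among Janus kinases, *Jak2* (1.38 ± 0.06, adjusted p = 1.27e-07, limma) and *Jak1* (1.21 ± 0.06, adjusted p = 2.30e-07, limma) rose in WT, and with *Jak3* 3 of 4 were called. In TNFR2-/- 2 of 4 were called, *Jak1* and *Jak2*, and the medians were 0.93 in WT and 0.68 in TNFR2-/-. Of the 6 partners, *Irf9*, which binds STAT2 in ISGF3, rose in WT by 2.98 ± 0.13 (adjusted p = 9.60e-08, limma), from 4.11 ± 0.0696 to 35.9 ± 1.59 FPKM (SD, n = 3). *Nmi*, a STAT-interacting protein, rose by 1.65 ± 0.09 (adjusted p = 5.66e-07, limma). The other 4, among them the coactivators *Crebbp* and *Ep300*, were not called in either genotype, and the medians were -0.03 and 0.02.

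Among inhibitors of the pathway, 6 of 18 were called higher and 1 lower in WT, beside 7.53% of all genes tested called in either direction. In TNFR2-/- 8 were called higher and 0 lower, beside 10.1%. The medians were 0.18 in WT and 0.32 in TNFR2-/-. *Socs1*, which blocks Janus kinases, went from 59 to 99 reads in WT NS to 4905 to 5708 in WT St (5.69 ± 0.16, adjusted p = 5.30e-09, limma). *Socs2*, a STAT5 target that acts back on growth hormone signaling, rose by 4.40 ± 0.25 (adjusted p = 5.87e-07, limma). *Sh2b3*, an adaptor that restrains JAK2, was the gene called lower in WT (-0.71 ± 0.10, adjusted p = 0.000541, limma). *Socs3*, *Cish*, *Usp18* and *Ptpn2* were the other 4 called higher in WT.

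**Figure D5:**
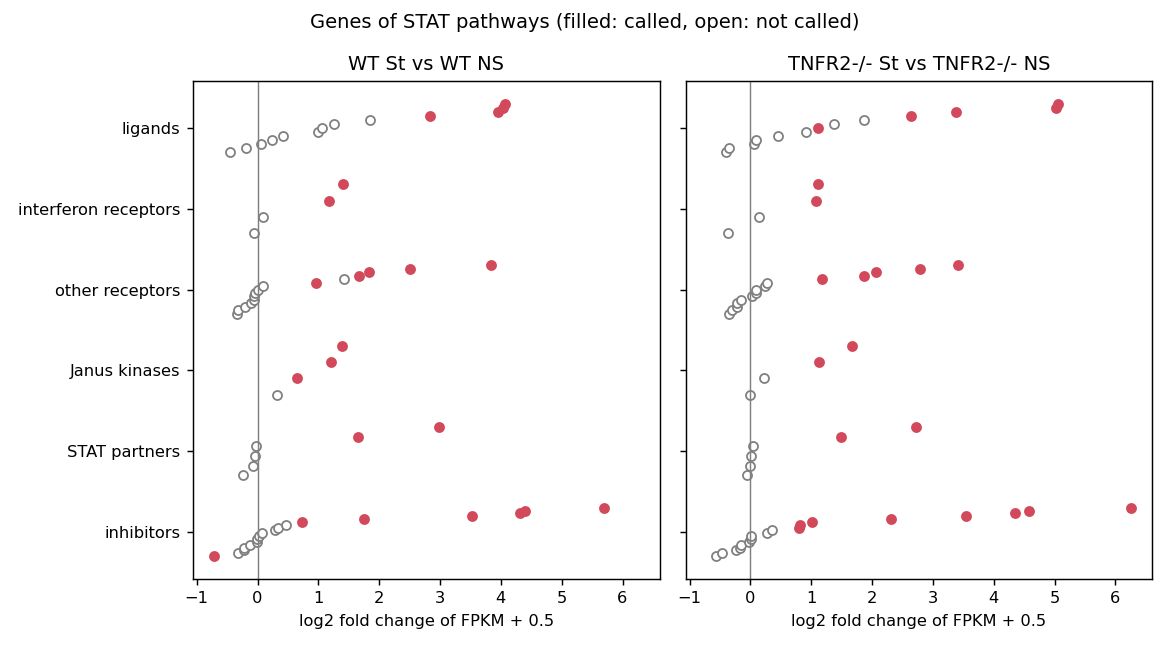
Log2 fold change of FPKM + 0.5 with cytokines for genes of 6 pathway lists in WT (left) and TNFR2-/- (right), with filled points called and open points not called. In both genotypes the called points lie to the right of 0, except *Sh2b3* at -0.71 among the WT inhibitors, and the STAT partners split into 2 called genes and 4 near 0.

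Known targets were listed by the STAT protein that drives them, and many also answer to other factors such as NF-kappaB, so their counts do not measure STAT activity. Over all genes tested, 7.53% were called in WT and 10.1% in TNFR2-/-. Of 16 STAT3 targets tested, 10 were called higher and 2 lower in WT (median 1.31), and 11 higher and 1 lower in TNFR2-/- (median 2.08). *Bcl3*, an NF-kappaB cofactor, rose by 5.93 ± 0.25 in WT (adjusted p = 7.46e-08, limma) and *Lcn2*, an acute-phase protein, by 4.51 ± 0.39 (adjusted p = 1.69e-05, limma). *Ccnd1*, encoding cyclin D1, fell by 0.76 on the log2 scale (SE 0.16, adjusted p = 0.00705, limma) and *Vegfa* by 0.60 (SE 0.09, adjusted p = 0.00135, limma). Of 12 targets of ISGF3, 8 were called higher in each genotype and none lower. *Ifit1* and *Ifit3*, interferon-induced genes, rose by 4.10 ± 0.31 (adjusted p = 6.80e-06, limma) and 3.83 ± 0.45 (adjusted p = 0.000168, limma) in WT. The list's median was 1.81 in WT and 2.22 in TNFR2-/-, or 2.36 and 2.79 with genes of at most 3 reads in every NS library set at their lower bound.

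Of 7 STAT5 targets tested, 3 were called higher and 2 lower in WT (median 0.15), and 4 higher and 1 lower in TNFR2-/- (median 1.06). *Socs2*, already described, and *Cish* (3.53 ± 0.17, adjusted p = 2.01e-07, limma), both feedback inhibitors, were the largest. *Bcl6*, a repressor that STAT5 is known to silence, fell by 1.06 on the log2 scale in WT (SE 0.18, adjusted p = 0.00234, limma). Of 4 STAT6 targets tested, only *Socs1* was called in either genotype (medians 0.33 and 0.44), and it is shared with other STAT proteins. The other 3 are genes that IL4 induces through STAT6 in myeloid cells. *Ccl17* passed the adjusted p in WT (0.56 ± 0.16, adjusted p = 0.0348, limma) and in TNFR2-/- (0.59 ± 0.16, adjusted p = 0.0184, limma), and NS and St did not overlap in either genotype. It was not called because it averaged under 1 FPKM in every group, and in WT the change was also below the fold required (1.47-fold). Near the pseudocount of 0.5 FPKM, these changes are smaller than the ratios of the FPKM themselves. *Arg1* and *Ccl22* had log2 fold changes of -0.13 and 0.11 in WT (adjusted p = 0.532 and 0.854, limma) and of 0.04 and 0.29 in TNFR2-/- (adjusted p = 0.836 and 0.478, limma). With 3 to 8 reads of *Arg1* and 3 to 17 of *Ccl22* per library, the pseudocount reduces these changes as well.

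Between genotypes, 6 of the 90 pathway and target genes tested outside the STAT family (6.67%) were called in NS, beside 2.90% of all genes tested, and 1 of 90 (1.11%) in St, beside 1.80%. In NS, 1.62% of all genes tested were called higher and 1.28% lower in TNFR2-/-. *Osmr* was higher by 1.95 ± 0.40 (adjusted p = 0.0211, limma) and *Bcl3* by 0.94 ± 0.25 (adjusted p = 0.0412, limma). *Jak3* and *Il11ra1* were also called higher. *Fos*, a target of STAT3 and of other factors, was lower (-1.25 ± 0.23, adjusted p = 0.0164, limma) and so was *Socs5* (-0.59 ± 0.15, adjusted p = 0.0335, limma). In St only *Irf7*, a target of ISGF3 and amplifier of interferon responses, was called, at 0.87 ± 0.21 (adjusted p = 0.0458, limma). All 12 ISGF3 targets had a higher mean in TNFR2-/- St than in WT St, with a median of 0.66, beside -0.003 over all genes tested. Of these, 11 were not called, and the St groups overlapped for *Oas1a*, *Mx1*, *Mx2*, *Rsad2* and *Oasl1*. Libraries were uneven, with *Ifit3* at 448 ± 293 FPKM in TNFR2-/- St (SD, n = 3). In NS 10 of the 12 were higher in TNFR2-/-, with a median of 0.16. No gene of these lists was called for the interaction. The sums of the 8 astrocyte markers, 952 to 1137 CPM in WT NS and 1408 to 2682 in TNFR2-/- NS, did not overlap either. Nor did those of the mural and fibroblast markers, which were lower in TNFR2-/-. The part of these markers in the values of the pathway genes was not tested.

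Among markers of other cells, the 6 neuron markers summed to 149 to 188 CPM in NS and 490.1 to 601 in St, and *Tubb3* alone accounted for 38.4 to 70.9 in NS and 384 to 497 in St. *Snap25* was lower in St, at 16.6 to 23.9 against 29.2 to 57.9 in NS. Their part in the values of *Stat2*, *Stat3* and *Stat5a* was not tested. The sum of microglia markers, at 8.37 to 9.69 in WT St and 8.16 to 9.54 in WT NS, overlapped between these groups. Over the TNFR2-/- groups it was 5.77 to 7.97 in NS and 10.1 to 12.6 in St, with no overlap. There *Cd68* alone accounted for 4.15 to 7.01 in NS and 9.06 to 11.6 in St. *P2ry12*, at 0.698 to 1.32 in NS and 0.633 to 1.53 in St, overlapped. The number of the 10 markers at 0 was 2 to 6 per library, with *Itgam* and *Ptprc* at 0 in every WT NS library, *C1qa* and *Tyrobp* in every WT St library, and *Tyrobp* in every TNFR2-/- library. The part of these cells in the STAT values was not tested.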

How the data were processed

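Gene values of 12 libraries were analyzed in 2 tables, 1 for NS and 1 for St. Per the study's methods, trimming by the authors used Trim Galore, alignment was to GRCm38 with an Ensembl annotation, STAR gave counts per gene and EdgeR their own calls. The deposited values were FPKM, made by the authors from counts. The labels name Illumina library preparation and the methods a BGISeq-500. Of 45792 entries, 229 with a shared symbol were left out. Reads were recovered from FPKM: of 26636 genes detected in 2 libraries or more, 26636 came out as whole reads throughout (100%, tolerance 0.02 reads).

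The 18081 genes averaging 0.1 FPKM or more were tested with limma 3.58.1 (R 4.3.3) on log2(FPKM + 0.5), with a mean for each of 4 groups, a prior that follows the level and Benjamini-Hochberg adjustment. The script was tested on simulated data. Exact permutation tests were two-sided. Alternatives were pseudocounts of 0.1 and 1 FPKM, other filters, scalings, call rules and priors, a replicate block, voom on recovered reads, a fit over 6 libraries, and leaving out each library. Over 13554 genes, NS and St libraries of 1 genotype and number deviated together (6 pairs, r = 0.338 to 0.649), against -0.455 to 0.0880 for 12 pairs of other numbers. Same-numbered libraries of different genotypes did not do so in every pair (-0.0553 to 0.204). The numbers therefore paired NS with St within genotype. Named genes were all STAT genes used, the 3 most correlated with each, and the called genes of largest change in each list, up to 2 per direction. Further genes named beside small counts, and single marker or overlapping genes, were chosen after their values were seen. Members and lists were chosen with earlier results of these data known. The result for 1 further family member is not reported here. Positions came from GENCODE M21 and promoters from RefSeq. Python 3.11.15, numpy 2.4.6, pandas 2.3.3 and matplotlib 3.10.9 were used. Intervals and floors of reads cover counting error only.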

Additional observations from a re-analysis of the deposited data

How the results depend on the processing

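*Stat2*, *Stat3* and *Stat5a* stayed called higher with cytokines in both genotypes under all 24 alternatives run. Of all alternative values of log2 fold changes, 558 kept their direction and side of the threshold, 18 newly passed the adjusted p and 19 changed sign. The number of STAT genes called between genotypes in St, 0 as reported, was 1 with only genes of at least 1 FPKM tested, with voom on recovered reads and with either replicate block, and 0 to 1 when single libraries were left out; that gene was *Stat5a*, except without TNFR2-/- NS replicate 2, when it was *Stat6*. The block within genotype changed the call of *Stat5a* in St (1.36, adjusted p = 0.0312, limma) and of *Stat6* in TNFR2-/- (-0.65, adjusted p = 0.00982, limma), and of no other STAT gene.

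Sign changes concerned small differences, and the cause was not tested. In NS, between genotypes, median-of-ratios scaling gave -0.0031 for *Stat2*, -0.023 for *Stat3* and -0.036 for *Stat5b*, quantile normalization gave -0.016 for *Stat2* and -0.032 for *Stat5b*, the block with the number as a factor gave -0.047 for *Stat2*, and leaving out both libraries of TNFR2-/- replicate 5 gave -0.029 for *Stat2*. Median-of-ratios scaling gave 0.044 for *Stat6* in WT with cytokines. Leaving out single libraries moved the NS genotype difference from -0.0295 to 0.121 for *Stat2*, -0.0212 to 0.0597 for *Stat3*, -0.0297 to 0.0508 for *Stat5b* and -0.246 to 0.325 for *Stat6*, and the WT change of *Stat6* from -0.0808 to 0.0871. The coding length from RefSeq proteins was not run as a divisor, since no protein table was used here. *Stat6*, with 24 to 73 reads per library, and *Stat4*, with 0 to 4, rest on the fewest reads.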
